A study of Saccharomyces cerevisiae with 24 samples.

Results

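Ribosomal RNA (rRNA) from pooled sucrose gradient fractions 3 and 4 of budding yeast was compared between cells exposed to 1 mM hydrogen peroxide (H2O2) for 30 min and untreated cells, with 2 libraries per group. These are 4 of the 24 libraries of the series, and each was assigned to its group by its sample title. All 4 came from wild-type Saccharomyces cerevisiae, strain BY-4741 in the labels, grown in YPD medium at 30 °C to mid-exponential phase in biological duplicates. Treated and untreated cultures alike received cycloheximide, which arrests translating ribosomes, before they were lysed in polysome extraction buffer and separated on 10-50% gradients. The sample titles call the pooled fractions translated, and no gradient profile was used here to check that name. The same H2O2 and untreated conditions were also sequenced as input, whose RNA was purified with a commercial yeast kit, with 2 libraries each. Direct RNA sequencing on nanopores reads each RNA strand itself, and for every rRNA position the deposited tables give the reads that cover it, the shares of those reads with a mismatch, an insertion or a deletion, and the mean base quality. Of the 5475 positions in the reference, 4536 had at least 50 reads in all 4 libraries: 1787 of 1800 in 18S, 2495 of 3396 in 25S, 146 of 158 in 5.8S and 108 of 121 in 5S rRNA.

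Yeast rRNA carries pseudouridine (Ψ), in which a uridine is rotated on its sugar, 2′-O-methylated nucleotides (Nm), and a small set of modified bases. Small nucleolar RNAs pair with the rRNA precursor and place most Ψ and Nm, whereas dedicated enzymes place the modified bases. These marks cluster in the decoding site, the peptidyl transferase centre and helix 69 of 25S, which forms a bridge between the subunits. A modified nucleotide alters the pore current, so the basecaller reads it wrongly more often than an unmodified one. Of 113 known modified positions, 95 were deep enough in all 4 libraries: 38 of 45 Ψ, 46 of 56 Nm and 11 of 12 base-modified sites. The other 18 all lie in 25S between m1A645 and Ψ1042, where replicate 2 of the H2O2 group had 33 to 49 reads.

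The stretches that the results turn on are given 5′ to 3′ from the reference bases of the deposited tables, with T standing for U. In 25S, the 3′ end is shown because the lowest quality p-values lie there (capitals mark A3391, U3392, U3394 and U3396), and helix 69 because 5 modified sites lie within it (capitals). The Ψ2129 to m1A2142 and m5C2278 to Gm2288 stretches hold base-modified sites beside other marks, which are capitalised.
25S positions 3371 to 3396: gattaagcctttgttgtctgATtTgT
25S helix 69, positions 2246 to 2276: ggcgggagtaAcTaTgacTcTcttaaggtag
25S positions 2123 to 2148: ggaatcTgacTgtctaattAaaacat
25S positions 2272 to 2294: ggtagcCaAAtgcctcGtcatct
In 18S and 5S, the stretches around positions with the lowest p or the largest differences are shown, and capitals mark Cm414 and Am420, then Ψ466, then U618 and Am619, then Ψ999, G1002 and Cm1007, then ac4C1773 and both dimethyladenosines, then G115 and C120 of 5S.
18S positions 404 to 430: gctaccacatCcaaggAaggcagcagg
18S positions 454 to 478: tcagggaggtagTgacaataaataa
18S positions 606 to 631: agttgttgcagtTAaaaagctcgtag
18S positions 991 to 1015: gaagatgaTcaGatacCgtcgtagt
18S positions 1765 to 1790: aaggtttcCgtaggtgAAcctgcgga
5S positions 101 to 121: gaaactcaggtgctGcaatCt
In length the 4 rRNAs equal the genes RDN18-1 (18S), RDN25-1 (25S), RDN58-1 (5.8S) and RDN5-1 (5S) of assembly R64, and positions count from 1 at the 5′ end of each.

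Replicate 2 of the H2O2 group stood apart from the other 3 libraries before any site was considered. Median coverage was 1370 and 135 reads per position in the H2O2 libraries and 599 and 1492.5 in the untreated libraries. Reads in replicate 2 of the H2O2 group were concentrated at the 3′ ends of the large rRNAs. Around position 1000 of 25S, coverage was 28.7% and 1.77% of that over the last 200 positions in the H2O2 libraries and 32.4% and 25.1% in the untreated libraries. In input this share was 41.5% and 8.33% in H2O2 and 46.2% and 14.9% in untreated cells, lower in replicate 2 of both groups. Replicate 2 of the H2O2 group in fractions also held a mean of 16767 reads per position on 5S, the small RNA of the large subunit. Counting noise alone would give a mean chi-square of about 1 per position between replicates, and the mean was 5.87 between the H2O2 libraries and 1.59 between the untreated libraries. Each result below is therefore given for every library, and those that turn on this library are also given without it.

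**Figure D1:**
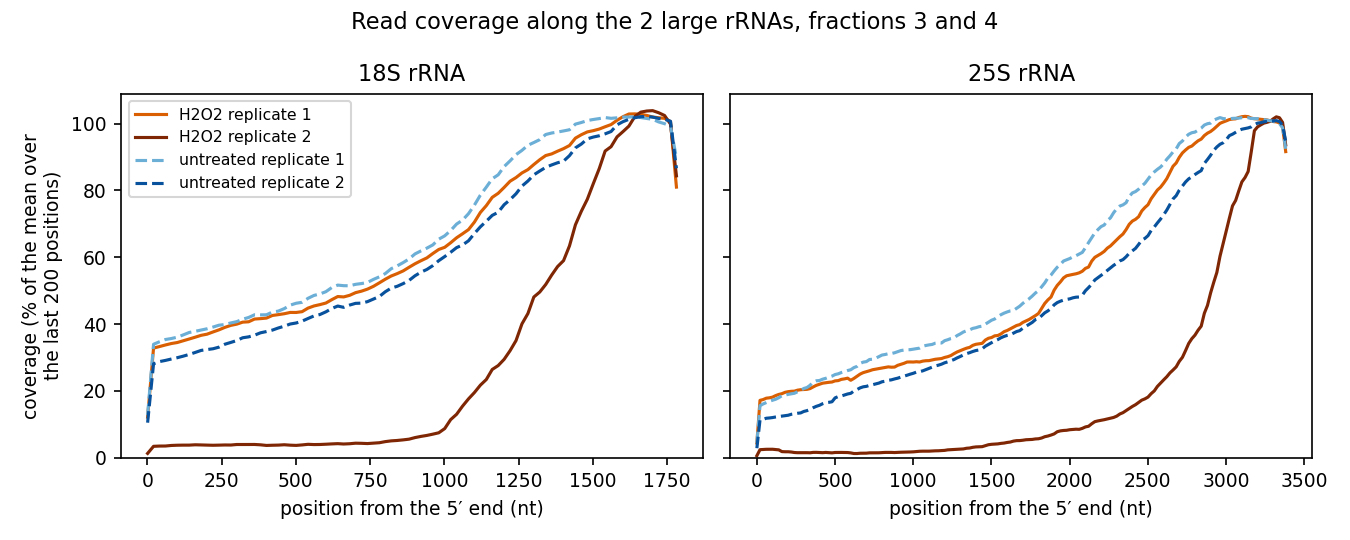
Read coverage along 18S (left) and 25S (right) in bins of 20 positions, as a percentage of the mean over the last 200 positions, for 2 H2O2 libraries (solid) and 2 untreated libraries (dashed). Coverage of H2O2 replicate 2 drops towards the 5′ end far sooner than that of the other 3 libraries.

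No position passed the test between H2O2 and untreated fractions after adjustment. A per-position quasi-binomial logistic model on the reads, with Benjamini-Hochberg adjustment at 0.05, called 0 of 4536 positions (0%) for mismatch, insertion and deletion alike. At an unadjusted p under 0.05 it gave 83 positions (1.83%) for mismatch, 148 (3.26%) for insertion and 87 (1.92%) for deletion. Base quality, compared with limma, also gave 0 calls, and 14 positions (0.309%) had an unadjusted p under 0.05. On log-odds of error, limma called 0 positions for each of the 3 error types. At an unadjusted p under 0.05 it gave 67 (1.48%), 59 (1.30%) and 34 (0.75%) for mismatch, insertion and deletion. With 2 libraries per group, a missed threshold does not show that the groups were alike.

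The call count turned on which H2O2 library was kept. Without replicate 1 of the H2O2 group, so that its shallow replicate 2 alone stood against the untreated libraries, 228 positions were called for mismatch, of which 218 were higher and 10 lower. Without replicate 2, 34 were called, of which 10 were higher and 24 lower. Deletion gave 317 calls without replicate 1, 310 of them higher, and 49 without replicate 2, 39 of them lower. Insertion gave 35 calls without replicate 1, 24 of them higher, and 23 without replicate 2, 13 of them higher. Quality gave 1500 calls without replicate 1, 1458 of them lower, and 22 without replicate 2, 16 of them higher. Without replicate 1 of the untreated group there were 2 calls for mismatch, 12 for insertion, 1 for deletion and 0 for quality, and without its replicate 2 there were 0 for all 4 measures. The fits without an H2O2 library share the untreated libraries and assume that the lone H2O2 library varies as the untreated ones do.

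The 2 H2O2 libraries lay on opposite sides of the untreated ones across positions with no known modification. Over 3764 positions at least 6 nucleotides from any known site, mean mismatch was 2.81% and 3.91% in the H2O2 libraries and 3.06% and 3.09% in the untreated libraries. Mean deletion was 4.59% and 5.93% in the H2O2 libraries and 4.97% and 4.98% in the untreated libraries. Mean base quality was 18.5 and 16.6 in the H2O2 libraries and 17.7 and 18.0 in the untreated libraries. Replicate 1 of the H2O2 group thus had the fewest errors and the highest quality of the 4, and replicate 2 the most errors and the lowest quality. Each of the 4 bases showed this order for mismatch and deletion. The mean mismatch difference was 0.281 points with all 4 libraries, and ran from -0.271 without replicate 2 to 0.832 without replicate 1 of the H2O2 group.

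Guanine, the base that peroxide-derived radicals oxidise most readily to 8-oxoguanine, was examined against the other bases. Mean mismatch at 1025 unmodified guanines was 2.22% and 3.24% in the H2O2 libraries and 2.44% and 2.40% in the untreated libraries. Mismatch at guanines minus that at the other unmodified bases was -0.811 and -0.930 percentage points in the H2O2 libraries and -0.860 and -0.953 in the untreated libraries. The groups overlapped, with a difference of 0.035 points (exact two-sided permutation test, p = 0.667). With 2 libraries against 2, that test cannot give a p below 0.333. The sign of this small difference changed without replicate 1 of the H2O2 group and without replicate 2 of the untreated group, where it was -0.024 and -0.011.

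**Figure D2:**
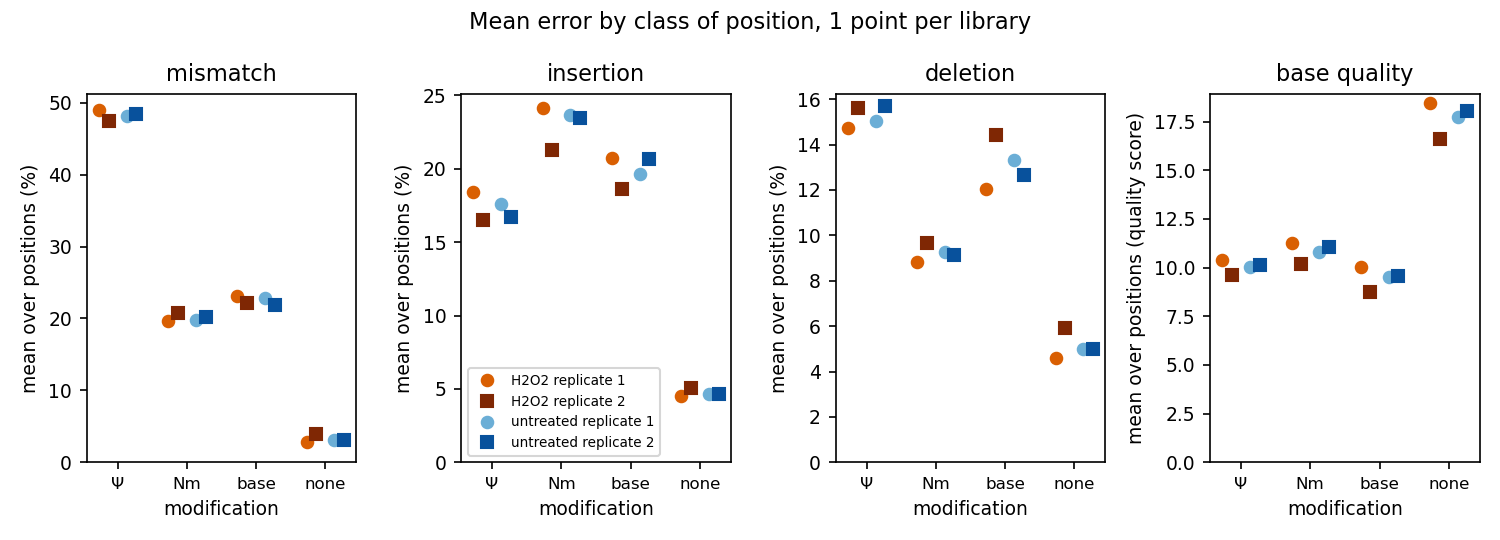
Mean mismatch, insertion and deletion (% of reads) and mean base quality (score) over 38 Ψ, 46 Nm, 11 base-modified and 3764 unmodified positions, with 1 point per library and H2O2 libraries to the left of untreated ones. At unmodified positions the H2O2 replicates lie on either side of both untreated libraries.

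At pseudouridines the groups differed by less than the H2O2 replicates did among themselves. Mean mismatch over 38 Ψ was 49.0% and 47.5% in the H2O2 libraries and 48.2% and 48.4% in the untreated libraries, a mean of 48.2% ± 1.06 against 48.3% ± 0.157 (SD, n = 2 each). Site by site the difference ran from -6.72 to 5.46 points, higher at 18 sites and lower at 20. Its median size was 1.64 points, against 3.85 between the H2O2 replicates and 2.66 between the untreated replicates. Both H2O2 libraries lay above both untreated ones at 3 Ψ and below them at 3, read against 11.5% and 12.1% over all positions. Without replicate 2 of the H2O2 group the mean difference was 0.656 points, and without replicate 1 it was -0.837.

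Among all 95 modified sites, both H2O2 libraries lay above both untreated ones for mismatch at 6.32% and below them at 8.42%, where the shares over all positions were 11.5% and 12.1%. For insertion the modified sites gave 8.42% and 14.7%, against 12.8% and 14% over all positions. For deletion they gave 8.42% and 12.6%, against 9.79% and 13.1%. For base quality they gave 8.42% and 5.26%, against 6.68% and 4.32%. For mismatch and for deletion both shares at modified sites were below those over all positions.

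The Ψ with the largest difference was 18S Ψ466, guided by snR189. Its mismatch was 46.1% and 43.9% in the H2O2 libraries and 52.3% and 51.2% in the untreated libraries. Both H2O2 libraries were lower, but the fit gave an adjusted p of 1 (quasi-binomial model), and only 66 reads covered the site in replicate 2 of the H2O2 group, with a Wilson 95% interval of 32.6% to 55.9%. The 10 other libraries of untreated wild-type yeast with enough reads there ranged from 44.3% to 56.6% at this site. 25S Ψ1124, guided by snR5, had 35.6% and 55.8% mismatch in the H2O2 libraries and 39.4% and 41.0% in the untreated libraries. Here the high value came from 52 reads in replicate 2, with an interval of 42.3% to 68.4%, and replicate 1 was below both untreated libraries. 25S Ψ1110, guided by snR82, had 7.38% and 4.00% mismatch in the H2O2 libraries and 9.04% and 10.3% in the untreated libraries. The groups did not overlap, and replicate 2 of the H2O2 group rested on 50 reads.

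Some Ψ whose guides were deleted elsewhere in the series were picked here for that reason after their values were seen. At each of those given here the groups overlapped for mismatch. snR36 guides 18S Ψ1187, with 23.7% and 20.2% mismatch in the H2O2 libraries and 18.5% and 22.1% in the untreated libraries. snR34 guides 25S Ψ2826 and Ψ2880 beside the peptidyl transferase centre. Ψ2826 had 79.3% and 72.9% mismatch in the H2O2 libraries and 75.6% and 78.4% in the untreated libraries. Ψ2880 had 45.2% and 37.2% in the H2O2 libraries and 42.0% and 42.3% in the untreated libraries. At both, the H2O2 replicates lay on either side of the untreated ones. snR3 guides 25S Ψ2129 and Ψ2133, where mismatch was 51.7% and 55.3%, and 46.8% and 53.8%, in the H2O2 libraries. The untreated libraries had 51.4% and 58.4% at Ψ2129 and 45.8% and 50.6% at Ψ2133. In 5S, Ψ50, made by the protein enzyme Pus7, had 71.0% and 71.8% mismatch in the H2O2 libraries and 73.6% and 69.4% in the untreated libraries, with 18984 reads behind replicate 2 of the H2O2 group.

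**Figure D3:**
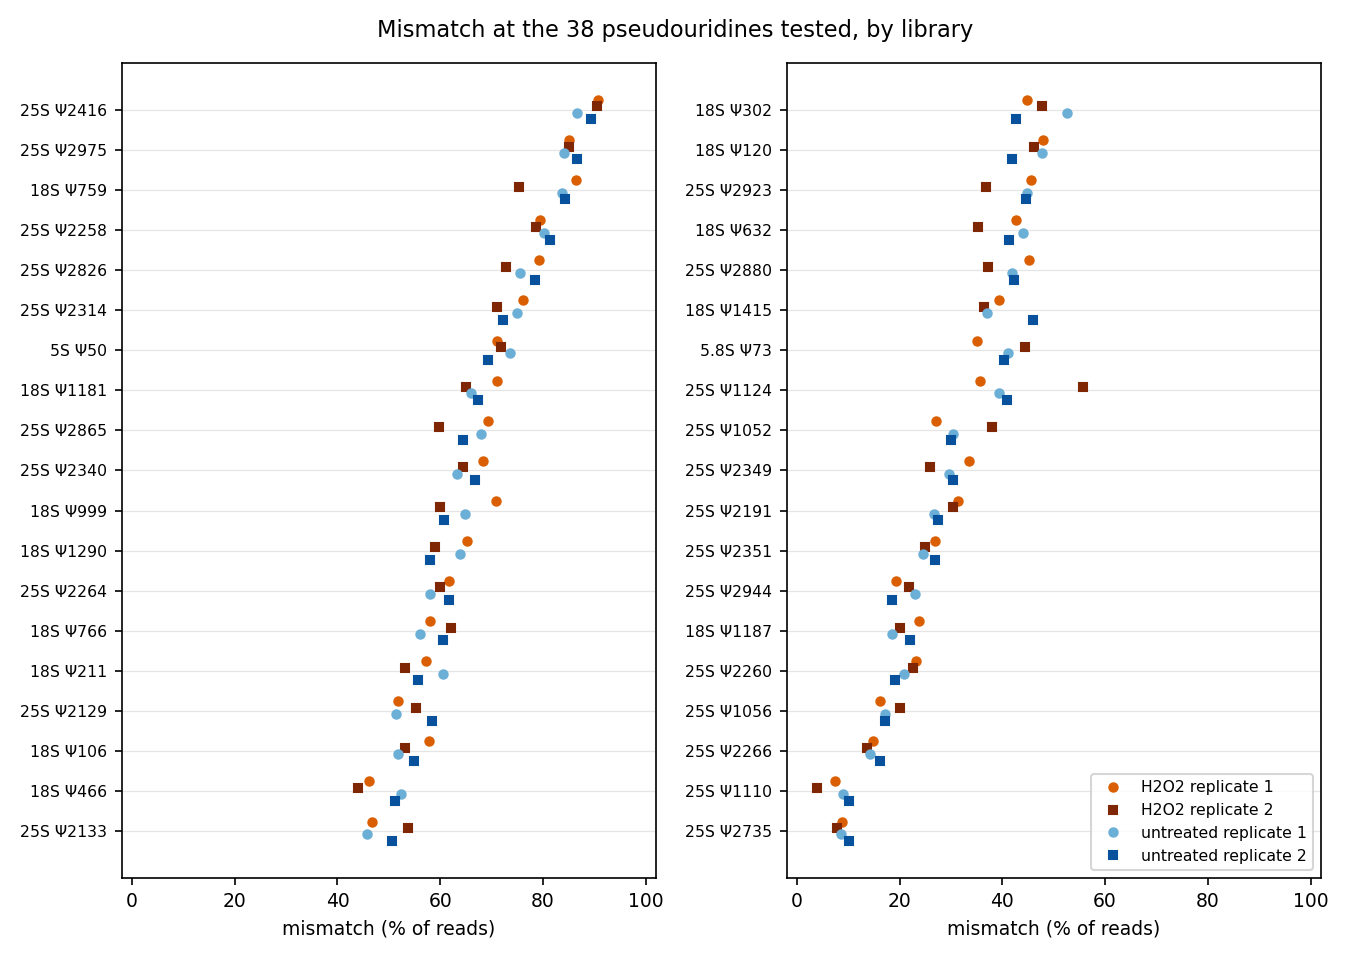
Mismatch (% of reads) at each of the 38 Ψ tested, ordered by the untreated mean, with H2O2 libraries drawn above untreated ones in each row. Most rows overlap, 18S Ψ466 has both H2O2 libraries lower, and the lone high point at 25S Ψ1124 is H2O2 replicate 2 with 52 reads.

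Ribose-methylated sites had close mean mismatch in the 4 libraries, and their mean insertion was lowest in replicate 2 of the H2O2 group. Mean mismatch over 46 Nm was 19.7% and 20.7% in the H2O2 libraries and 19.7% and 20.2% in the untreated libraries. Mean insertion was 24.1% and 21.3% in the H2O2 libraries and 23.7% and 23.5% in the untreated libraries. Replicate 1 of the H2O2 group was thus above both untreated libraries and replicate 2 below both. The mean insertion difference was -0.869 points, and ran from -2.31 without replicate 1 to 0.577 without replicate 2 of the H2O2 group. At 9 Nm both H2O2 libraries were below both untreated ones for insertion, and at 2 they were above, read against 14% and 12.8% over all positions.

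18S Am420, guided by snR52, was the modified site with the lowest mismatch p. Mismatch was 44.5% and 39.7% in the H2O2 libraries and 38.1% and 35.7% in the untreated libraries. The H2O2 libraries were higher, by a log2 odds ratio of 0.48 ± 0.11 (SE), with an adjusted p of 1 in the quasi-binomial model. Without replicate 2, which had 63 reads there, the log2 odds ratio was 0.49 and the adjusted p 0.017. Without replicate 1 it was 0.20, with an adjusted p of 0.907, and without either untreated library the adjusted p was also above 0.05. Input libraries had 42.9% and 35.6% in H2O2 and 43.2% and 36.5% in untreated cells, so the untreated input spanned most of the range seen in the fractions. 18S Am541, guided by snR41, had 23.4% and 38.2% mismatch in the H2O2 libraries and 23.2% and 24.8% in the untreated libraries. 25S Gm1450, guided by snR24, had 8.52% and 17.9% in the H2O2 libraries and 9.33% and 7.61% in the untreated libraries. At Am541 and Gm1450 replicate 2 of the H2O2 group alone was high, on 68 and 84 reads.

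The 11 base-modified sites had mean mismatch of 23.1% and 22.1% in the H2O2 libraries and 22.9% and 21.9% in the untreated libraries. For mismatch, both H2O2 libraries were above both untreated ones at 1 of the 11 and below them at 0. Over all positions these shares were 11.5% and 12.1%. For insertion the counts were 0 and 3 of the 11, against 12.8% and 14% over all positions. For deletion they were 0 and 2, against 9.79% and 13.1%, and for quality 2 and 0, against 6.68% and 4.32%.

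In the 18S decoding region, m1acp3Ψ1191, a hypermodified uridine at the tip of helix 31, had 53.0% and 42.6% mismatch in the H2O2 libraries and 48.6% and 46.4% in the untreated libraries. Mismatch at m7G1575, methylated by Bud23, was 48.1% and 46.0% in the H2O2 libraries and 47.9% and 48.7% in the untreated libraries. At both sites the groups overlapped. For mismatch the adjacent dimethyladenosines made by Dim1 near the 18S 3′ end overlapped as well. m62A1781 had 40.7% and 32.9% mismatch in the H2O2 libraries and 38.5% and 32.9% in the untreated libraries. m62A1782 had 20.5% and 27.7% in the H2O2 libraries and 26.2% and 22.7% in the untreated libraries. Deletion at m62A1782 was lower in both H2O2 libraries, as at 13.1% of all positions. The deletion difference there was -2.42 points, and ran from -3.52 to -1.32 without single libraries.

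The 18S acetylcytidines, made by the acetyltransferase Kre33, were among the 14% of all positions where insertion was lower in both H2O2 libraries than in both untreated ones. At ac4C1773, in helix 45, insertion was 25.1% and 22.6% in the H2O2 libraries and 28.6% and 27.8% in the untreated libraries. At ac4C1280 it was 6.07% and 7.95% in the H2O2 libraries and 8.22% and 8.04% in the untreated libraries, so the nearest libraries almost met. The difference at ac4C1280 was -1.12 points, and -0.174 without replicate 1 of the H2O2 group. Unadjusted p was 0.022 and 0.10 in the quasi-binomial model, and adjusted p was 1 at both. In input, ac4C1773 insertion was 28.2% and 27.7% in H2O2 and 29.2% and 27.5% in untreated cells, so the groups overlapped there. Mismatch at ac4C1773 was 3.54% and 11.5% in the H2O2 libraries and 5.24% and 5.31% in the untreated libraries, high in replicate 2 alone.

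In 25S, m1A2142, methylated by Bmt2, had 64.0% and 51.0% mismatch in the H2O2 libraries and 60.1% and 55.0% in the untreated libraries. Its insertion was 55.0% and 44.9% in the H2O2 libraries and 50.6% and 45.1% in the untreated libraries. For both measures replicate 1 was above replicate 2 in each group. The methylcytidine m5C2278, made by Rcm1, had 0.663% and 0.658% mismatch in the H2O2 libraries and 0.121% and 0.725% in the untreated libraries. The other methylcytidine, m5C2870, made by Nop2, had 15.1% and 14.7% insertion in the H2O2 libraries and 17.0% and 17.4% in the untreated libraries. Both H2O2 libraries were lower there, with an unadjusted p of 0.079 and an adjusted p of 1 in the quasi-binomial model. Mismatch at m5C2870 was higher in both H2O2 libraries, by 0.564 points, as at 11.5% of all positions. The methyluridine m3U2634, made by Bmt5, had 4.41% and 6.53% mismatch in the H2O2 libraries and 5.84% and 6.43% in the untreated libraries. Deletion was the main error at m3U2843, made by Bmt6, with 39.5% and 39.2% in the H2O2 libraries and 40.8% and 44.2% in the untreated libraries. Deletion at m3U2843 was lower in both H2O2 libraries, whereas mismatch at m3U2634 overlapped between the groups. Base quality was higher in both H2O2 libraries at each of these sites, as at 6.68% of all positions. The quality difference was 0.588 at m3U2634 and 0.301 at m3U2843.

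**Figure D4:**
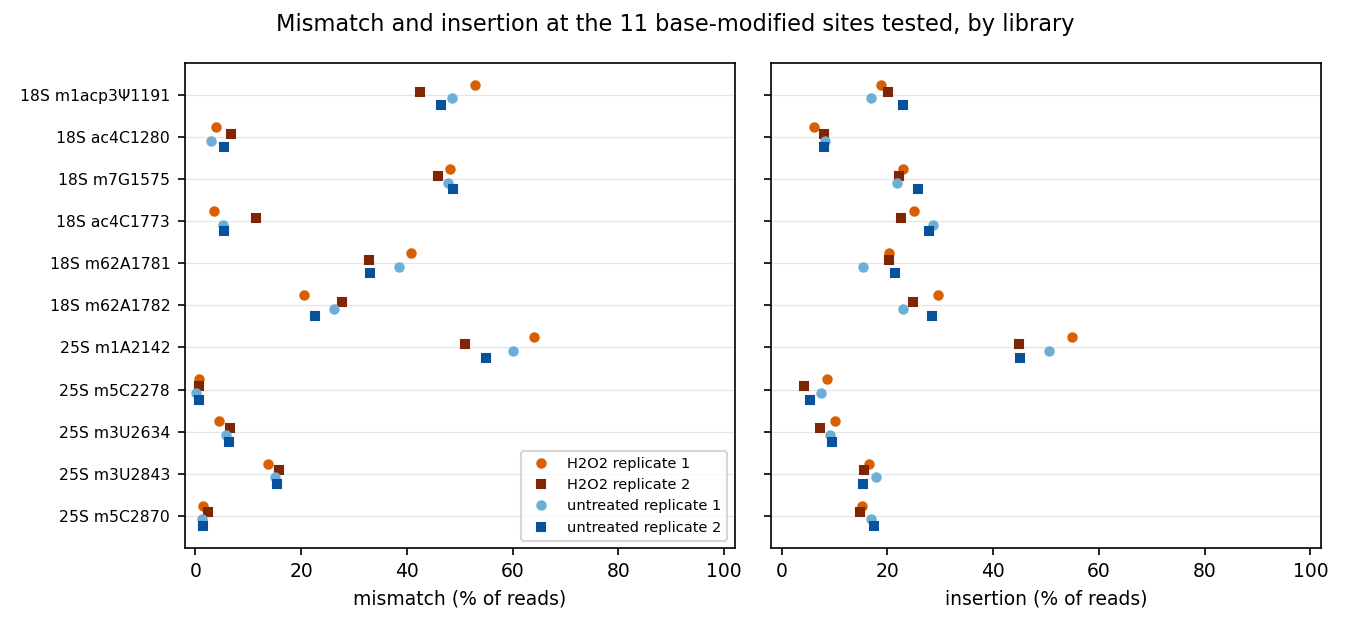
Mismatch (left) and insertion (right), as % of reads, at the 11 base-modified sites tested, with H2O2 libraries drawn above untreated ones in each row. Insertion at ac4C1773 and m5C2870 is lower in both H2O2 libraries, and mismatch at most sites overlaps between groups.

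Helix 69 differed by at most 2.99 points of mismatch at any of its 5 modified sites. Am2256 had 81.6% and 78.5% mismatch in the H2O2 libraries and 83.2% and 81.9% in the untreated libraries. Ψ2258 had 79.5% and 78.6% in the H2O2 libraries and 80.1% and 81.4% in the untreated libraries. At these neighbours both H2O2 libraries were lower. Ψ2260, which like Ψ2258 is guided by snR191, had 23.2% and 22.7% mismatch in the H2O2 libraries and 20.8% and 19.2% in the untreated libraries. Its deletion, the main error at this site, was 66.4% and 69.2% in the H2O2 libraries and 70.0% and 71.1% in the untreated libraries. Mismatch was thus higher and deletion lower in both H2O2 libraries, with unadjusted p of 0.054 and 0.053 and adjusted p of 1 in the quasi-binomial model. Ψ2264 had 61.7% and 59.9% mismatch in the H2O2 libraries and 58.0% and 61.6% in the untreated libraries. Ψ2266, guided by snR84, had 14.8% and 13.8% in the H2O2 libraries and 14.3% and 16.2% in the untreated libraries. At Ψ2264 and Ψ2266 the groups overlapped for mismatch. Over the 5 sites, mismatch was higher in both H2O2 libraries at 1 and lower at 2, against 11.5% and 12.1% over all positions. For deletion the counts were also 1 and 2, against 9.79% and 13.1%. These sites share reads, and mismatch and deletion at Ψ2260 are counted on the same reads, so they are not separate observations. Mean mismatch over the 5 sites was 52.2% and 50.7% in the H2O2 libraries and 51.3% and 52.1% in the untreated libraries.

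Base quality was lower in both H2O2 libraries over the 3′ end of 25S, and the 4 lowest quality p-values all lay in its last 6 positions. At U3392 mean quality was 10.0 and 10.3 in the H2O2 libraries and 13.4 and 13.4 in the untreated libraries, a difference of -3.19 with both H2O2 libraries lower. At A3391 it was 10.4 and 10.2 in the H2O2 libraries and 13.1 and 13.4 in the untreated libraries. At U3394 it was 9.37 and 8.91 in the H2O2 libraries and 11.4 and 12.4 in the untreated libraries, and at the last base, U3396, 6.29 and 5.76 in the H2O2 libraries and 7.64 and 8.24 in the untreated libraries. These positions are deep in every library, with 2396 reads or more at U3392 in the H2O2 group. Adjusted p was 1 at all 4 in limma with all 4 libraries, and also without either untreated library, when the spread comes from the H2O2 libraries alone. It passed the threshold only in the fits without an H2O2 library, when the spread comes from the untreated libraries alone. At U3392 it was 2.32e-05 without H2O2 replicate 1 and 1.63e-04 without H2O2 replicate 2, and at A3391 1.89e-05 and 0.0016. At U3394 these values were 3.49e-06 and 0.0027, and at U3396 2.58e-06 and 0.017. Both of these fits share the untreated libraries. Without single libraries the difference at U3392 ran from -3.35 to -3.04, and at U3394 from -3.31 to -2.27.

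Over the last 20 positions of 25S, both H2O2 libraries were below both untreated ones for quality at 12 and above them at 0, where the shares over all positions were 4.32% and 6.68%. This stretch was looked at because the lowest quality p-values lie in it, so its counts are not separate support. Positions in it share reads, so they are not separate observations. In 18S the count was 8 of the last 20, with A1794 at 10.9 and 11.9 in the H2O2 libraries and 15.3 and 12.1 in the untreated libraries. At 2 of these 18S positions both H2O2 libraries were lower in input as well. One was A1794, at 10.1 and 10.4 in H2O2 and 13.0 and 11.1 in untreated input. The share of reads 10 positions before the 25S end that also covered its last base was 47.2% and 58.8% in the H2O2 libraries and 63.3% and 70.4% in the untreated libraries. This share was lower in both H2O2 libraries in 25S of the fractions. In 18S the same share overlapped, at 27.2% and 38.2% in the H2O2 libraries and 39.2% and 35.0% in the untreated libraries. In input it overlapped for 25S as well, at 56.6% and 67.2% in H2O2 and 63.2% and 68.2% in untreated cells. The order at the 25S end was not shared by input. At U3392 quality in input was 13.3 and 13.6 in H2O2 and 12.2 and 11.1 in untreated cells. Of the last 20 positions of 25S, both H2O2 libraries were higher in input at 15 and lower at 0. At 9 of the 20 the H2O2 libraries were lower in fractions and higher in input. Opposite order between fractions and input, in either direction, was found at 1.39% of all positions for quality. The 11 other untreated wild-type libraries ranged from 7.97 to 13.3 at U3392, a range that holds both H2O2 values and lies just below both untreated fraction libraries.

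**Figure D5:**
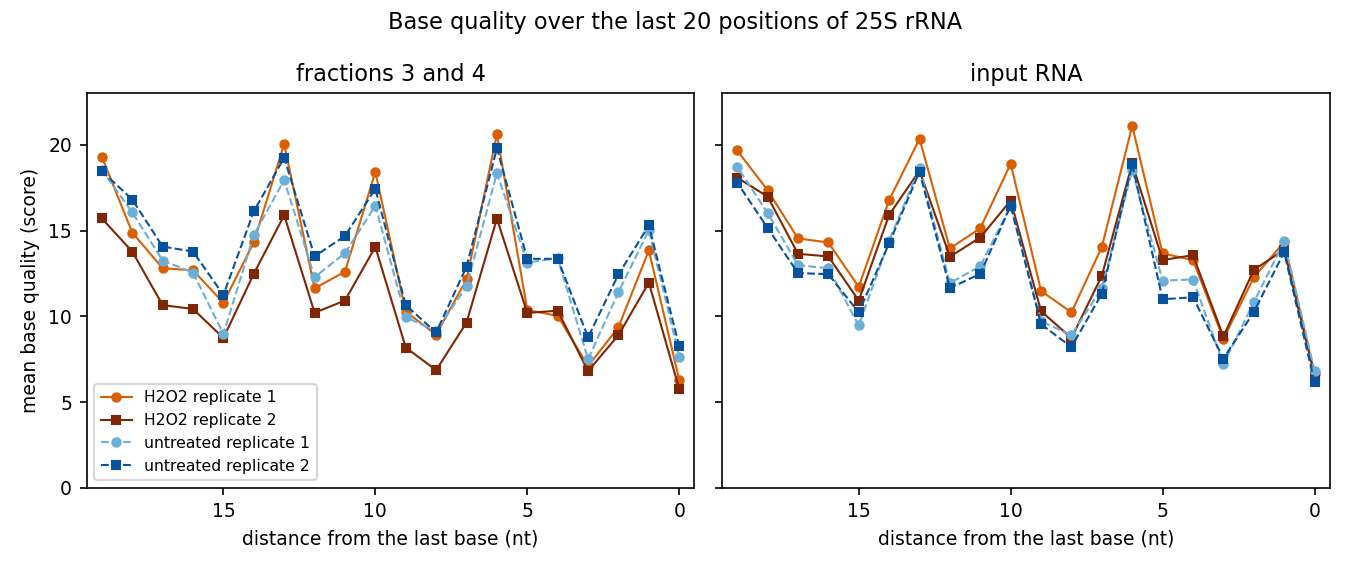
Mean base quality (score) over the last 20 positions of 25S in fractions 3 and 4 (left) and in input (right), against distance from the last base, with H2O2 libraries solid and untreated libraries dashed. Within 6 positions of the end both H2O2 libraries run below both untreated ones in fractions, and at U3392 they run above them in input.

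The lowest mismatch p-values outside modified sites were at 5S C120, 25S G1256 and 5S G115. C120, the penultimate base of 5S, had 0.813% and 1.93% mismatch in the H2O2 libraries and 2.99% and 4.94% in the untreated libraries. Both H2O2 libraries were lower, with 17807 reads in replicate 2 and 123 in replicate 1. Its input values were 3.07% and 3.34% in H2O2 and 3.23% and 3.85% in untreated cells. G1256 had 1.83% and 0% in the H2O2 libraries and 4.40% and 4.91% in the untreated libraries, and the 0% rests on 62 reads, which allow a share of up to 4.84% (3 reads). G115 had 5.66% and 5.37% in the H2O2 libraries and 1.39% and 9.74% in the untreated libraries. The groups overlapped at G115, and the fit weights libraries by their reads, which were 18914 and 1715 in replicate 2 of the H2O2 and untreated groups. Without replicate 1 of the H2O2 group, adjusted p was 5.32e-09 at C120 and 1.49e-08 at G115 (quasi-binomial model). Neither passed the threshold when another library was left out, and the log2 odds ratio at C120, -1.38 with all 4 libraries, then ran from -2.64 without replicate 2 of the H2O2 group to -0.65 without replicate 2 of the untreated group. With mismatched, inserted and deleted reads summed, C120 turned to a log2 odds ratio of 0.30. G115 turned to 2.01 without replicate 2 of the untreated group.

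For insertion, all 4 positions of lowest p were lower in both H2O2 libraries, as were 14% of all positions, while 12.8% were higher in both. Choosing positions by p favours those where the groups separate. 18S G1002, 3 bases after Ψ999, had 18.7% and 22.2% insertion in the H2O2 libraries and 22.6% and 27.0% in the untreated libraries. 25S U1990 had 10.4% and 12.6% in the H2O2 libraries and 14.7% and 15.4% in the untreated libraries. 25S C1767 had 0.921% and 1.46% in the H2O2 libraries and 2.53% and 2.92% in the untreated libraries. 25S U1484 had 0.99% and 0% in the H2O2 libraries and 2.59% and 2.92% in the untreated libraries, where the 0% of 97 reads allows up to 3.09%. At G1002 replicate 1 was below replicate 2 in both groups, and the nearest libraries of the groups almost met. Without replicate 2 of the H2O2 group its adjusted p was 0.0053, and without replicate 1 of the untreated group 0.013 (quasi-binomial model). Without either of the other libraries it did not pass, and the log2 odds ratio, -0.58 with all 4 libraries, was -0.28 without replicate 1 of the H2O2 group and -0.32 without replicate 2 of the untreated group.

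For deletion, 18S U618, next to Am619, had 52.2% and 51.4% in the H2O2 libraries and 47.9% and 44.9% in the untreated libraries. In fractions both H2O2 libraries were higher, and input values were 51.9% and 45.4% in H2O2 and 51.1% and 47.1% in untreated cells. 18S U679 had 0.276% and 0% deletion in the H2O2 libraries and 1.14% and 1.44% in the untreated libraries, where the 0% of 70 reads allows up to 4.29%. 18S U718 had 1.67% and 1.35% in the H2O2 libraries and 3.38% and 3.50% in the untreated libraries. 5S G115 had 5.03% and 9.32% in the H2O2 libraries and 9.72% and 15.1% in the untreated libraries. The last 3 were lower in both H2O2 libraries, as were 13.1% of all positions, while 9.79% were higher in both. These positions too were chosen by p, and adjusted p was 1 in the quasi-binomial model at all 4. Without replicate 1 of the H2O2 group it was 7.71e-06 at G115. The log2 odds ratio at G115, -0.77 with all 4 libraries, was -0.07 without replicate 2 of the untreated group and -1.72 without replicate 2 of the H2O2 group, and neither of these passed the threshold. At U718 the order was the opposite in input, with 3.46% and 3.12% in H2O2 and 2.06% and 2.60% in untreated cells, as it was at 2.82% of all positions for deletion.

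The treatment effect in fractions was also set against that in input in a fit over 8 libraries and 4535 positions. The input effect gave 0 calls for each of the 4 measures. An unadjusted p under 0.05 was reached by 132 positions (2.91%) for mismatch, 120 (2.65%) for insertion, 103 (2.27%) for deletion and 22 (0.485%) for quality. The difference between the effects also gave 0 calls (quasi-binomial model, and limma for quality), with 119 (2.62%), 127 (2.80%), 129 (2.84%) and 21 (0.463%) at an unadjusted p under 0.05. Its smallest adjusted p was 0.421, for quality at the 25S end. Input RNA was prepared with another kit, so this comparison also crosses RNA preparations.

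Coverage gave 4 further readouts of rRNA content and integrity. Mean coverage of 18S over that of 25S, as a log2 ratio, was 0.384 and 0.039 in the H2O2 libraries and 0.322 and 0.536 in the untreated libraries, with overlapping groups (exact two-sided permutation test, p = 0.667). The difference of -0.217 ranged from -0.390 without replicate 1 to -0.045 without replicate 2 of the H2O2 group. The log2 ratio of coverage over the first 500 to that over the last 500 positions of 18S was -1.37 and -4.47 in the H2O2 libraries and -1.36 and -1.53 in the untreated libraries (exact p = 0.667). For 25S it was -2.37 and -5.51 in the H2O2 libraries and -2.38 and -2.88 in the untreated libraries (exact p = 1). Replicate 1 of the H2O2 group lay close to untreated replicate 1 in both, and among these 4 libraries replicate 2 of the H2O2 group alone was low. Without that library the differences were 0.072 for 18S and 0.26 for 25S, of opposite sign. In input the 25S ratio was -1.80 and -4.94 in H2O2 and -1.68 and -3.95 in untreated cells, low in replicate 2 of both groups.

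Expansion segment 7 of 25S, a long eukaryotic insertion at positions 430 to 650, is a known site of rRNA cleavage in yeast under oxidative stress. The log2 ratio of coverage 5′ of it to coverage 3′ of it, over 50 positions on each side, was -0.198 and 0.227 in the H2O2 libraries and -0.287 and -0.423 in the untreated libraries. The H2O2 libraries were both higher, by 0.370, at the smallest p the design allows (exact two-sided permutation test, p = 0.333). A higher ratio means that less coverage was lost across the segment towards the 5′ end, and cleavage itself was not tested. Replicate 2 of the H2O2 group had under 50 reads there, and the difference ran from 0.157 without it to 0.583 without replicate 1 of the H2O2 group. In input the value was -0.258 and -0.759 in H2O2 and -0.225 and -0.527 in untreated cells.

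Across 167 windows of 25 positions in 18S and 25S, the share of coverage lost towards the 5′ end was higher in both H2O2 libraries than in both untreated ones in 35 windows (21%) and lower in 15 (8.98%). Median loss per window was 1.52% and 3.64% in the H2O2 libraries and 1.31% and 1.62% in the untreated libraries. The largest separated differences came from replicate 2. In 18S from 1150 to 1175, loss was 3.52% and 14.1% in the H2O2 libraries and 3.29% and 2.79% in the untreated libraries. In 25S from 2946 to 2971, it was 1.40% and 10.6% in the H2O2 libraries and 0.77% and 1.36% in the untreated libraries. In 18S from 475 to 500, it was 0.305% and -8.06% in the H2O2 libraries and 2.36% and 1.69% in the untreated libraries, where the negative value is a gain of coverage on 62 reads. In each of these windows replicate 1 of the H2O2 group lay nearer to the untreated libraries than to its own replicate.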

How the data were processed

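The 4 libraries, made by nanopore direct RNA sequencing, were grouped by sample title. Per the file headers, coverage is a deposited count of reads per position. Mismatch, insertion and deletion were deposited as a fraction of the reads at the position, and multiplied by coverage they were whole numbers at 100% of positions (tolerance 0.001), so reads with each error were recovered. The deposited base quality is a score, used as the mean over reads. No basecaller, aligner or filter is given in the sources used here.

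Positions with at least 50 reads in all 4 libraries were kept. Reads with and without each error were modelled at each position by quasi-binomial logistic regression in R 4.3.3. The dispersion was moderated with limma 3.58.1 (squeezeVar, along log mean coverage) and floored at 1. Quality was tested with limma (lmFit and eBayes with a trend). P-values were Benjamini-Hochberg adjusted over all positions, at 0.05. Means over classes of sites have no test. Single coverage and guanine values were tested by exact two-sided permutation over 6 arrangements of the libraries. The models were tested on simulated data first. Those data had no library-wide shift in error between replicates, unlike the H2O2 libraries, so the simulation does not cover that setting. Wilson 95% intervals reflect counting error alone. Summaries and figures were made with pandas 2.3.3, numpy 2.4.6 and matplotlib 3.10.9 in Python 3.11.15.

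The 113 known sites were compiled from general knowledge of yeast rRNA, each with a fitting reference base. Enzymes and guides named are background from the same knowledge. The samples, site lists and tests were chosen with earlier results of these data known. Named positions are the 4 of lowest p for each measure (no position was called), all base-modified and helix 69 sites tested, the 3 Ψ and 3 Nm of largest mismatch difference, and the 3 coverage windows of largest separated difference. Alternatives were a minimum of 20 or 100 reads, limma on log-odds (0.5 pseudo-reads), a library-wide error shift, centred or median quality, summed mismatch, insertion and deletion, 8 libraries, a replicate block, and leaving out each library.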

Additional observations from a re-analysis of the deposited data

Results flagged for a closer look

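At 4 named positions both H2O2 libraries lay on one side of both untreated libraries in fractions and on the other side in input. At 25S U3392 the quality difference in fractions minus that in input was -4.99, from -3.19 in fractions and 1.79 in input. At 25S A3391 it was -4.90, from -2.96 and 1.94. At 25S U3394 it was -4.75, from -2.79 and 1.96. The adjusted p of this difference was 0.421 at all 3 (limma over 8 libraries). The 3 positions lie within 6 bases of the 25S end and share reads, and 1.39% of positions showed such opposite order for quality. At 18S U718 the deletion difference in fractions minus that in input was -2.89 percentage points, from -1.93 and 0.956, with an adjusted p of 1 (quasi-binomial model over 8 libraries). For deletion 2.82% of positions showed opposite order. RNA preparation differed between fractions and input, and its part in these values was not tested. With 2 libraries per group, single libraries were not tested for standing apart within their group.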

How the results depend on the processing

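The 0 calls for each measure stayed at 0 with a minimum of 20 or 100 reads and with 8 libraries. They also stayed at 0 with limma on log-odds (error types), with summed errors (mismatch), and with centred or median quality. A library-wide error shift gave 5 mismatch calls, all lower in H2O2 and all in 5S. A replicate block gave 4 calls for mismatch and 3 for insertion, and 0 for deletion and quality. The block with the shift gave 35, 7 and 32 calls for mismatch, insertion and deletion. On log-odds, the deviations of same-numbered libraries correlated at 0.0032, 0.063 and 0.015 for these over all positions, and at -0.055, 0.237 and 0.199 over the 95 modified sites. In percentage points the 95 sites gave 0.232, 0.199 and 0.215, and 0.126 for quality, and pairs of groups that include input gave 0.274 to 0.740. The labels tie no same-numbered libraries together and there are 2 numbers, so they were not taken as pairs. What same-numbered libraries share at modified sites was not tested. Leaving out 1 library gave 0 to 228 mismatch, 0 to 35 insertion, 0 to 317 deletion and 0 to 1500 quality calls. The highest counts were those without replicate 1 of the H2O2 group. The cause of these shifts was not tested. With all 4 libraries kept, 59 of 60 alternative values for the 16 class means moved by less than the SD between replicates. Without single libraries, all 16 differences took both signs. The exception among the 60 was base-modified mismatch, at -0.511 points when the median over sites was taken in each library first. The median of the differences at single base-modified sites was 0.238 points. The guanine difference was -0.038 by the median over positions and ran from -0.024 to 0.095 without single libraries. The difference in the end ratio ran from -3.03 to 0.072 for 18S and from -2.88 to 0.26 for 25S, with the high ends without replicate 2 of the H2O2 group and the low ends without replicate 1. Among 16 tested positions, 143 of 167 alternatives kept direction and side of the threshold, 21 crossed it, and 3 turned direction. Those 3 were 5S C120, at a log2 odds ratio of 0.30 with summed errors, and 5S G115 mismatch, at 0.33 with limma on log-odds and between -0.93 and 2.01 without single libraries, the high end without replicate 2 of the untreated group. The shallow replicate 2 of the H2O2 group, with 50 to 84 reads at several named sites, limits what could be detected in the 5′ parts of 18S and 25S.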
